A study of Mus musculus with 22 samples.

Results

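Tumour necrosis factor alpha (TNF) was added to cultured aortic smooth muscle cells that received exogenous tenascin C (TNC), and gene expression with both agents was set against expression with TNC alone. The arrays were taken by their treatment labels, exogenous TNC + TNF (4 arrays) against exogenous TNC (4 arrays), which gives 8 of the 22 arrays of the series. The series profiles the suprarenal and infrarenal aorta of wild-type and Tnc-knockout mice (8 arrays of pooled RNA) and cultured cells (14 arrays) on Affymetrix Mouse Genome 430 2.0 arrays, and asks how TNC protects the aorta from acute dissection. All cultured cells came from the suprarenal aorta of male C57BL/6 mice of the TNC-KO genotype, were released with enzymes, and grew in DMEM with 10% fetal bovine serum, so both groups lack endogenous TNC. The first group received TNC at 10 µg/mL and no TNF, and the second TNC at 10 µg/mL and TNF at 10 ng/mL. A further 3 arrays without either factor and 3 arrays with TNF at 10 ng/mL but no TNC served for the comparison of the TNF effect with and without TNC. The design text gives 24 h of TNF and independent cultures, 4 with TNC and 3 without. It does not say whether an array with TNF and one without come from the same culture. The source labels count the hours up by 1 per array, from 29 h to 32 h for TNC alone and from 33 h to 36 h for TNC and TNF, and the titles of the first group name TNC or TNF. The treatment label and the 24 h of the design text were followed. A substance carried along with the TNC preparation cannot be told apart from TNC in these groups.

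TNF binds the receptors TNFR1 and TNFR2, encoded by Tnfrsf1a and Tnfrsf1b, whose adaptors of the TRAF and RIP kinase families switch on the kinases that release NF-kB from its inhibitors. NF-kB then induces chemokines, adhesion molecules, proteases and its own inhibitors, which end the signal, and through IRF1 and autocrine interferon beta it also reaches genes of the interferon response. In arterial smooth muscle TNF is known to draw leukocytes into the wall and to lower the contractile programme kept up by myocardin and serum response factor. TNC is a matrix glycoprotein of injured tissue that binds integrins and Toll-like receptor 4.

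The cell type label was checked against marker genes. Of 10 smooth muscle markers, 6 lay above the array median on all 8 arrays. Acta2 (smooth muscle actin) averaged 20768 with TNC alone, Tagln 11709 and Myl9 6721, while the late contractile markers were dim: Myh11 averaged 53.8, Des 73.8 and Myocd 22.9, against 14720, 1404 and 649 in the untreated wild-type suprarenal pool. Endothelial markers were also bright. Of 10, 8 lay above the array median on all 8 arrays, with Emcn at a mean of 11861 for TNC alone against 1159 in that pool, Pecam1 at 4627 against 1860 and Cdh5 at 2114 against 959.8, while Kdr (66.3) and Cldn5 (27.5) were dim. Of 10 fibroblast markers 9 lay above the array median on all 8 arrays, with Dcn at 18708 and Pdgfra at 4311. The summed signal of the smooth muscle markers was 56101 to 59674 with TNC alone against 118942 in the pool, that of the endothelial markers 24332 to 26231 against 11517, and that of the fibroblast markers 53787 to 57195 against 77245. Of 12 macrophage markers 3 lay above the array median on all 8 arrays. Lyz2 averaged 572 with TNC alone, Csf1r 239 and Cd68 97.3, against 13541, 6723 and 757 in the pool. Other macrophage markers such as Ptprc (9.92) and C1qa (4.95), and markers of lymphocytes (Cd3e 5.45) and adipocytes (Adipoq 26), were dim. Most of the smooth muscle, endothelial and fibroblast markers thus lay above the array median, as did 3 of 6 neural and Schwann markers. How many other genes pass this low bar was not tested, and the markers do not settle the label. The name aortic smooth muscle cells is used here only as the label gives it.

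**Figure D1:**
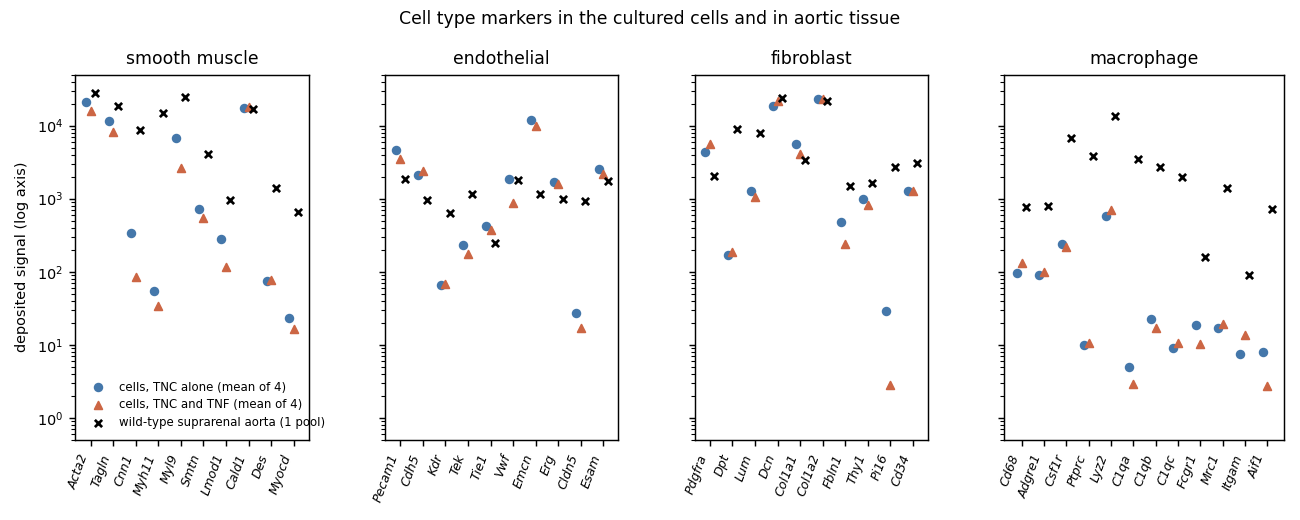
Signal of cell type markers on a log axis, as the mean of the 4 arrays with TNC alone (circles), the mean of the 4 arrays with TNC and TNF (triangles), and the untreated wild-type suprarenal pool (crosses, 1 array). Smooth muscle markers such as Myh11, Des and Myocd lie far below tissue, the endothelial markers Pecam1, Cdh5 and Emcn lie above it, and most macrophage markers are dim.

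Values are deposited signals, scaled so that the trimmed mean of every array is 500.0, and the brightest probe set of each cell array read 26914 to 33291, which bounds what a bright gene can still gain. Tnc itself is dim in these knockout cells. It read 128, 90.6, 107 and 133 with TNC alone and 80.5, 82.5, 82.7 and 66.3 with TNC and TNF (log2 difference -0.54, SE 0.14, adjusted p = 0.0163), a call lost without TNC array 1 or 4, and a second probe set differed by 0.04. Whether these probes lie in the deleted part of the gene was not analysed here. Differences are given throughout as log2 of TNC and TNF minus TNC alone, with the standard error (SE) and the Benjamini-Hochberg adjusted p of a limma fit over all 14 cell arrays, and a gene is called at an adjusted p under 0.05.

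TNF changed a broad set of genes in TNC-treated cells. Of 15636 genes tested, 1474 were called higher (9.43%) and 1928 lower (12.3%), which together is 21.8%, and at least 2-fold changes numbered 276 higher (1.77%) and 296 lower (1.89%). The 4 arrays of each group did not overlap in 23.1% of all genes. Counts of called or non-overlapping list members given below are to be read beside these shares. The median difference over all genes tested was -0.01. The balance of the calls depends on the scaling: 43.3% of calls were higher as deposited, against 53.3% after centring of every array on its median (1364 higher, 1197 lower), 55% when it was centred on the median of the tested genes (1906 and 1560), and 47.8% with quantile normalization (1580 and 1725). These scalings moved the median of all genes by less than 0.1. In bulk RNA fewer cells of one type and less RNA per cell cannot be told apart, and this holds for every fall described here.

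**Figure D2:**
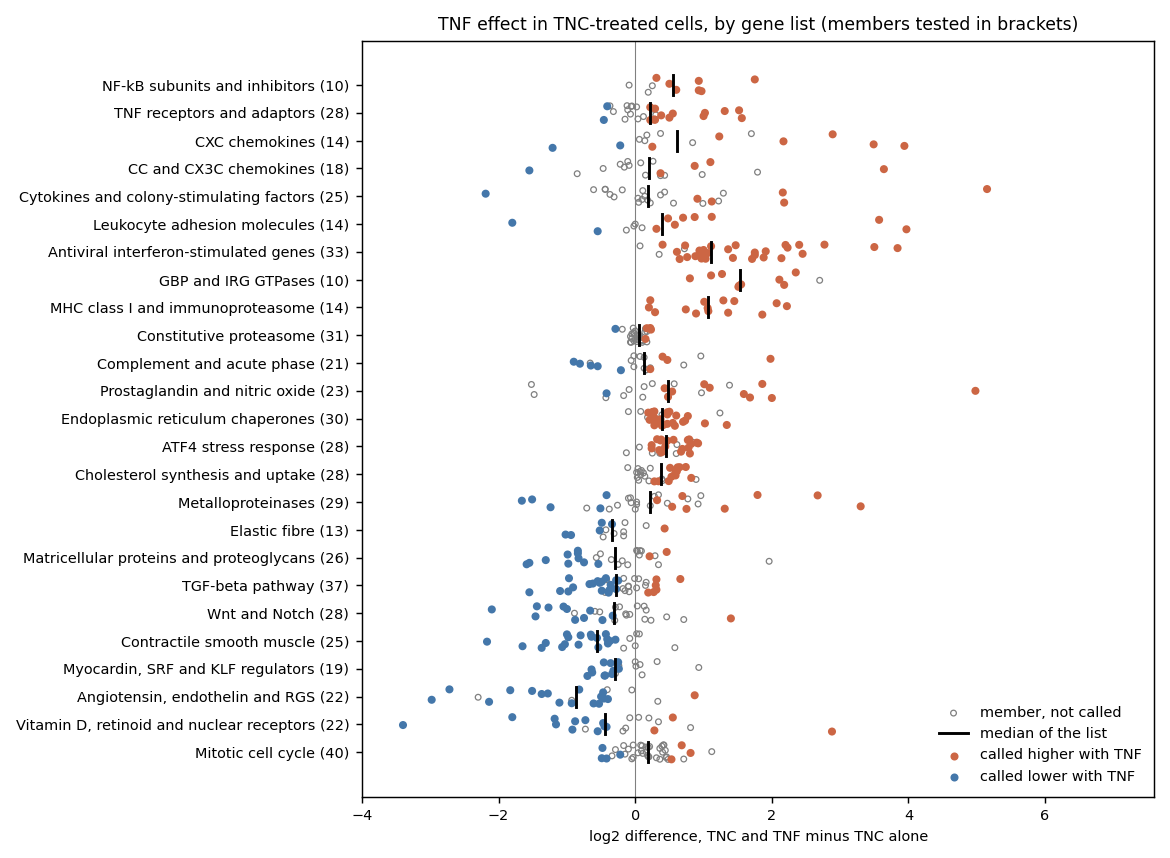
Log2 difference between TNC with TNF and TNC alone for each member of 25 gene lists (points; filled if called, coloured by direction), with the median of each list as a bar and the number of members tested in brackets. The medians of the antiviral, GBP and MHC class I lists lie to the right of 0, and those of the contractile, Wnt and Notch, and angiotensin lists to the left.

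Promoter sequences were searched for motifs. The shares below are over tested list members with a promoter, called or not, so they describe the lists and do not bear on the TNF effect. RefSeq promoters of the GRCm38.p6 build, 250 bases before to 50 after each start, were available for 12498 of the tested genes and searched on both strands. The interferon-stimulated response element, spelled GAAANNGAAA, occurs in 3.66% of these genes. It occurs in 10 of 22 antiviral interferon-stimulated genes with a promoter (45.5%) and in 6 of 7 guanylate-binding and immunity-related GTPase genes (85.7%). The NF-kB consensus occurs in 8.27% of genes and in 5 of 8 NF-kB subunits and inhibitors (62.5%) and 4 of 10 CXC chemokines (40%). The endoplasmic reticulum stress element, spelled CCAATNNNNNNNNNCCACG, occurs in 0.144% of genes and in 9 of 25 endoplasmic reticulum chaperone genes (36%). The CArG box bound by serum response factor occurs in 1.57% of genes and in 4 of 22 contractile genes (18.2%). The gamma-activated site bound by STAT proteins, spelled TTCNNNGAA, occurs in 8.55% of genes. It occurs in 8 of 22 antiviral genes (36.4%) and 3 of 7 of the GTPase genes (42.9%). A match is a run of letters and no proof of binding. The stretches below are examples of matches, in genes described later. Hspa5 was not called, and the call of Creld2 depends on the setting. Each lies upstream of the start and is written 5′ to 3′ on the gene's strand, and capitals mark the matches, which may lie on either strand.
Cxcl10, chr5:92348971-92349114, minus strand: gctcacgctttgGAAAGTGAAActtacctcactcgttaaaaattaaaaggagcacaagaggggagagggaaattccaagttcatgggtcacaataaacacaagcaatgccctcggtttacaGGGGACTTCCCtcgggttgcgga
Ifit3, chr19:34583361-34583428, plus strand: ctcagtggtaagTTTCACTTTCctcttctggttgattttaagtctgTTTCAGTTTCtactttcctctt
Gbp2, chr3:142620592-142620625, plus strand: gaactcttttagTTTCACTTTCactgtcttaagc
Ccl20, chr1:83116674-83116707, plus strand: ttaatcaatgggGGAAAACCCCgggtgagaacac
Irf1, chr11:53769912-53770013, plus strand: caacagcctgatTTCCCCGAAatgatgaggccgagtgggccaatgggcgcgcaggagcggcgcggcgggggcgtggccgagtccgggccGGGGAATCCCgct
Socs3, chr11:117969500-117969532, minus strand: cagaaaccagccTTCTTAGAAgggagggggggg
Creld2, chr15:88819508-88819550, plus strand: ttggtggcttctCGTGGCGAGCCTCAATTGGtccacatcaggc
Hspa5, chr2:34772013-34772055, plus strand: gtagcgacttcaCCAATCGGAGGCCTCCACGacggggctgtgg
Myl9, chr2:156775291-156775324, plus strand: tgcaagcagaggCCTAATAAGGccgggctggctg
Cxcl10 holds 1 interferon element and a pair of overlapping NF-kB matches. Ifit3 holds 2 interferon elements and Gbp2 holds 1. Ccl20 holds an NF-kB match, Irf1 a gamma-activated site followed by an NF-kB match, Socs3 a gamma-activated site, Creld2 and Hspa5 the stress element, and Myl9 a CArG box. In the 250 bases before the start, Csf2, Birc3, Nfkbie and Psmb9 held no NF-kB match. Cmpk2, Oasl2 and Psmb9 held no interferon element there, Sdf2l1 and Herpud1 no stress element, and Cnn1 and Acta2 no CArG box. No promoter was available for Cxcl5, Usp18, Gbp6, Manf, Tagln and Actg2, so these genes were not searched.

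The receptors themselves changed little and in opposite directions. Tnfrsf1a, the receptor that carries the death domain, read 4331, 4234, 3992 and 3927 with TNC alone and 3197, 3026, 3038 and 3131 with TNC and TNF (log2 difference -0.41, SE 0.04, adjusted p = 4.67e-05). The groups do not overlap. Tnfrsf1b was called higher (0.38, SE 0.11, adjusted p = 0.0236), but TNC and TNF array 4 (945) lies within the range of TNC alone, and the call is lost without any of 6 of the 8 arrays and when only the 8 arrays are fitted (adjusted p = 0.096).

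Of 28 TNF receptor and adaptor genes 13 were called higher and 2 lower (8 higher when the probe sets of a gene were averaged), with a median of 0.22 against -0.01 over all genes. Birc3, a ubiquitin ligase of the receptor complex that blocks cell death, read 2645, 3024, 2366 and 2418 with TNC alone and 8495, 7651, 7477 and 7193 with TNF (log2 difference 1.56, SE 0.09, adjusted p = 5.57e-07), a 2.96-fold rise. Its partner Birc2 rose by 1.02 (SE 0.05). Tnfaip3, the A20 deubiquitinase that ends NF-kB signalling, read 1841, 1913, 1832 and 1748 and then 6172, 5003, 5919 and 4187 (1.52, SE 0.10, adjusted p = 1.94e-06). On both genes the fourth array with TNF is the lowest of its group, and no array with TNF reaches into the range of TNC alone. The A20 partner Tnip1 rose by 1.00 (SE 0.08), the deubiquitinase Cyld by 0.55 (SE 0.08), the adaptor Traf1 by 1.31 (SE 0.18) and the caspase-8 inhibitor Cflar by 0.50 (SE 0.04). Traf5 fell by 0.46 on the log2 scale, and Tradd, Traf6, Casp8, Map3k7, Sharpin and Rbck1 did not pass.

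NF-kB subunits and inhibitors rose in 7 of 10 (median 0.55) and none fell. Nfkbie, which encodes the inhibitor IkB epsilon, read 1298, 1284, 1150 and 1187 and 4580, 4187, 4337 and 3501 (1.75, SE 0.08, adjusted p = 1.28e-07). The subunit genes Relb (0.97, SE 0.06), Nfkb2 (0.93, SE 0.12), Rel (0.93, SE 0.25) and Rela (0.50, SE 0.05) rose, although the Rel call is lost without TNC array 4 or TNC and TNF array 1 or 2, and so did the inhibitor gene Nfkbib (0.60, SE 0.09). Nfkbia, the best known inhibitor, already averaged 14831 with TNC alone and rose by 0.31 (SE 0.06) to 18397. Nfkbiz (0.19), Bcl3 (-0.09) and Nfkbid (0.25) did not pass.

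**Figure D3:**
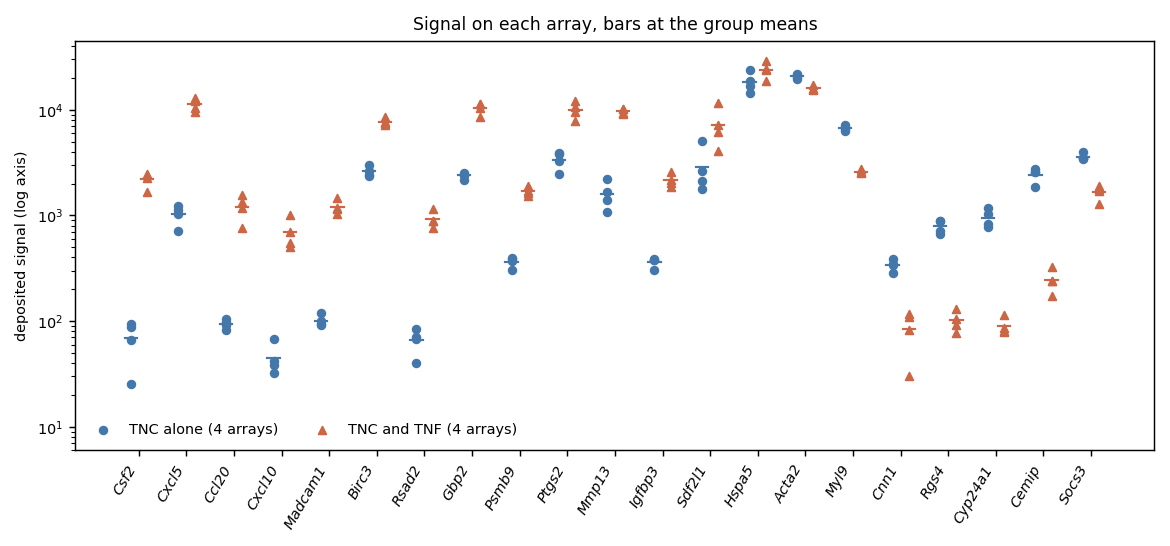
Deposited signal of 21 genes on each of the 4 arrays with TNC alone (circles) and the 4 arrays with TNC and TNF (triangles), on a log axis with bars at the group means. The groups are apart for all genes shown except Sdf2l1 and Hspa5.

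Some chemokine genes were near the top of the range with TNC alone, and others rose with TNF from low or moderate signal. Of 14 CXC chemokines 6 were called higher and 2 lower (median 0.61). Cxcl5, which attracts neutrophils, read 1035, 1124, 707 and 1218 with TNC alone and 12227, 9607, 13033 and 10408 with TNF (3.49, SE 0.18, adjusted p = 2.86e-07). All 4 arrays with TNF lie far above the highest without it. Cxcl10, which attracts T cells, read 42, 67.7, 38.6 and 32 and 504, 704, 1004 and 550.5 (3.94, SE 0.28, adjusted p = 2.41e-06). Its lowest array with TNF is well above all 4 without. Pf4, the platelet factor 4 gene, rose by 2.89 (SE 0.09), the B cell chemokine Cxcl13 by 2.17 (SE 0.26) and the membrane-bound Cxcl16 by 1.23 (SE 0.06). Cxcl1 averaged 26862 and 29551 (difference 0.14, adjusted p = 0.162), and Cxcl2 rose by 0.25 from 21816, a call lost under centring and quantile normalization and without TNC array 1 or TNC and TNF array 1 or 2. Both began close to the highest signals on the arrays. Cxcl9, an interferon gamma target, was dim in both groups (55.5 and 98.4) and did not pass (0.84, SE 0.37, adjusted p = 0.14). Cxcl12 and Cxcl15 fell by 0.22 and 1.21, and after centring every array on its median only 1 CXC gene was called lower.

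Among 18 CC and CX3C chemokines 4 were called higher and 1, Ccl6, lower (2 without TNC array 2), and 7 were higher on the scale of log2(value + 32). Over all genes 9.43% were called higher and 12.3% lower. Ccl20, the ligand of CCR6, read 82.6, 92.6, 98.3 and 104 and 1340, 1182, 1550 and 761 (3.64, SE 0.18, adjusted p = 2.81e-07). The fourth array with TNF was the lowest of its group, as for several cytokines described here. The monocyte chemokine Ccl7 rose by 1.10 (SE 0.20) and the membrane-bound Cx3cl1 by 0.87 (SE 0.14). Ccl2, the main monocyte chemokine, averaged 16102 and 20754 (0.37, SE 0.10, adjusted p = 0.0178), its groups overlap, and the call is lost without TNC array 1 or 4 and in a fit of the 8 arrays alone (adjusted p = 0.0617). Ccl5 read 4453, 4785, 4652 and 4272 with TNC alone and 16940, 15780, 14960 and 15037 with TNF. These 8 values lie in separate ranges, yet the fit over 14 arrays did not call the gene (1.79, SE 0.71, adjusted p = 0.0981). The arrays without any factor, which enter that SE, read 85.6, 4.94 and 80.9. A fit of the 8 arrays alone gave an SE of 0.07 and an adjusted p of 3.36e-05.

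Csf2, which encodes the granulocyte and macrophage growth factor GM-CSF, had the largest log2 difference of all genes tested. It read 25.5, 94.8, 88.3 and 66.5 with TNC alone and 2423, 2264, 2471 and 1653 with TNC and TNF (5.15, SE 0.49, adjusted p = 2.18e-05), or 4.52 when 32 was added to each signal before the log, a scale less swayed by dim values. Without TNC the same dose of TNF left it at a mean of 22.8 (1.47, adjusted p = 0.0658). Csf3, the granulocyte growth factor G-CSF, read 414, 411, 517 and 406 and 1195, 1133, 1266 and 609.9. Its groups do not overlap, but it did not pass (1.22, SE 0.48, adjusted p = 0.101) except with 32 added to each signal and in a fit of the 8 arrays alone (adjusted p = 0.0156). Csf1, the macrophage growth factor, rose by 1.12 (SE 0.06). Il6 read 9276, 12033, 13195 and 11218 and 21161, 24293, 21106 and 19230 (0.91, SE 0.13, adjusted p = 0.00038), Lif, another ligand of gp130, rose by 2.18 (SE 0.20), and the epithelial-type cytokine Tslp rose by 2.16 (SE 0.18). Il33, an alarmin stored in nuclei, fell by 2.19 (SE 0.29), from a mean of 150.2 to 32.2. Of 25 cytokine genes tested, 5 were called higher and 1 lower, beside 9.43% and 12.3% of all genes. As a group they were thus called about as often as all genes (21.8%). Il1a, Il1b, Il15, Il18 and Ifnb1 did not pass. Ifnb1, the gene of interferon beta, stayed dim at 38.2 and 36.5.

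Leukocyte adhesion genes rose in 8 of 14 with 2 lower (median 0.39). Madcam1, a ligand of the gut-homing integrin of lymphocytes, read 94.8, 118, 90.8 and 101 and 1457, 1180, 1158 and 1027 (3.57, SE 0.36, adjusted p = 3.85e-05). Icam1, which binds leukocyte integrins, read 17316, 19148, 16856 and 16528 and 27244, 26632, 24091 and 26587 (0.58, SE 0.07, adjusted p = 0.000103), and Vcam1 rose by 0.70 (SE 0.08) to 21798. Both stood near the top of the range with TNF. E-selectin (Sele) rose by 0.87 (SE 0.17) and the hyaluronan receptor Cd44 by 1.12 (SE 0.10). Bst1, a surface enzyme, rose from near background (16.3 to 209; 2.34 with 32 added to each signal). The junction molecules Mcam and Jam2 fell by 1.80 (SE 0.13) and 0.55 (SE 0.16), and P-selectin (Selp), bright at 11925, did not pass (0.10). After centring every array on its median, and without TNC array 1 or 4, only 1 of these genes was called lower. The endothelial marker list moved with these groups. Its summed signal was 24332 to 26231 with TNC alone and 20161 to 21587 with TNF, 5 of 10 markers were called lower and none higher, and von Willebrand factor (Vwf) fell by 1.06 (SE 0.07), Pecam1 by 0.40 and Emcn by 0.28, while Cdh5 (0.18) and Erg (-0.10) did not pass. The part of the endothelial signal in the adhesion results was not tested.

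Antiviral interferon-stimulated genes rose in 30 of 33 with none lower (median 1.11), and the other 3, Mx2, Oas3 and Samhd1, did not pass. Rsad2 (viperin) read 68.1, 84.5, 40.4 and 70.7 with TNC alone and 767, 879, 889 and 1142 with TNF (3.84, SE 0.29, adjusted p = 4.5e-06). Ifit1, which binds viral RNA caps, read 568, 1409, 923 and 719.5 and 4525, 4742, 3434 and 5622 (2.40, SE 0.30, adjusted p = 0.000157). The groups are apart on both genes, and the second TNC array and the fourth array with TNF are the highest of their groups on both. Its neighbour Ifit3, shown above with 2 interferon elements, rose by 2.45 (SE 0.21) and Ifit2 by 0.93 (SE 0.07). The Z-nucleic acid sensor Zbp1 rose by 3.50 (SE 0.66), from 38.4 to 406. The RNA sensors Ifih1 (1.43), Ddx58 (1.00) and Dhx58 (1.75) rose, as did the 2′-5′ oligoadenylate synthetases Oas1a (1.36), Oas2 (1.47) and Oasl2 (2.20). Usp18, which shuts off the interferon receptor, rose by 1.88 (SE 0.34).

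Guanylate-binding proteins and immunity-related GTPases, which attack vacuoles holding microbes, rose in 9 of 10 (median 1.54), and the tenth, Gbp8, was near background. Gbp2 read 2532, 2429, 2171 and 2424 and 10320, 11349, 11364 and 8459 (2.11, SE 0.10, adjusted p = 2.6e-07), Gbp6 rose by 2.35 (SE 0.11), Igtp by 1.51 (SE 0.13) and Irgm1 by 0.80 (SE 0.11). Among transcription factors Irf1, an activator of interferon response genes, read 1385, 1473, 1468 and 1372 and 3821, 3839, 3854 and 3465 (1.39, SE 0.05, adjusted p = 4.69e-08). Of the arrays with TNF, 3 lie within 3821 to 3854 and the fourth is the lowest, still above all 4 arrays without TNF. Irf7 rose by 1.81 (SE 0.24), Irf9 by 0.57, Stat2 by 0.63 (not called without TNC array 1 or 3 or TNC and TNF array 2 or 4, or in a fit of the 8 arrays alone) and Jak2 by 1.48 (SE 0.06). Of 23 interferon regulatory factors, STATs, receptors and SOCS genes 13 were called higher and 3 lower, and Irf3 and Irf8 did not pass.

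Every tested member of the MHC class I list was called higher, 14 of 14 with a median of 1.07 (12 of 14 at the least over the alternatives). The immunoproteasome subunits rose most. Psmb9 read 389, 396, 306 and 368 and 1899, 1718, 1626 and 1525 (2.22, SE 0.12, adjusted p = 3.08e-07), Psmb8 rose by 2.07 (SE 0.08) and Psmb10 by 1.86 (SE 0.06). The peptide transporter genes Tap1 and Tap2 rose by 1.29 (SE 0.10) and 1.07 (SE 0.06), the trimming peptidase Erap1 by 1.36 (SE 0.10), and the class I transactivator Nlrc5 by 1.01 (SE 0.18). The Tap1 call is lost when its 4 probe sets are averaged, 1 of which went to -0.23. H2-K1 (0.29), H2-D1 (0.22) and B2m (0.20) rose from means of 17915, 14494 and 25812, near the top of the range. The H2-D1 call is lost without any of 6 single arrays (all but TNC array 2 and TNC and TNF array 3), and the B2m call without any of 5 (TNC arrays 1, 2 and 4, and TNC and TNF arrays 2 and 3). Of the constitutive proteasome, 4 of 31 subunits were called higher and 1 lower (1 and 0 in a fit of the 8 arrays alone), the median was 0.06, and all differences lay between -0.29 and 0.23. Of 6 MHC class II genes, Cd74 rose by 0.96 (SE 0.26) and H2-Aa rose from near background (9.80 to 104), while its regulator Ciita did not pass (0.72, adjusted p = 0.397). Only 1 of the 6 was called without TNC array 1 or 4 or TNC and TNF array 2. Ubd, a ubiquitin-like tag for the proteasome, read 45.5, 35.6, 23.8 and 18.9 and 634, 568, 639.7 and 352 (4.19, SE 0.27, adjusted p = 1.34e-06).

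Genes of innate sensing, lipid mediators and oxidant production held further rises. Ptgs2, the inducible cyclooxygenase of prostaglandin synthesis, read 2448, 3876, 3792 and 3252 and 9549, 10547, 12078 and 7815 (1.59, SE 0.18, adjusted p = 8.73e-05), and the prostaglandin E synthase Ptges rose by 1.09 (SE 0.25). Of 23 prostaglandin and nitric oxide genes 10 were called higher and 1, the prostacyclin synthase Ptgis, lower (-0.42, SE 0.07), with 2 lower without TNC and TNF array 2. Nos2, the inducible nitric oxide synthase, read 28.7, 33.6, 33 and 22.6 and 122, 136, 133 and 83.3 (2.00, SE 0.51, adjusted p = 0.0157), and the arginine transporter Slc7a2 that feeds it read 3371, 4052, 4276 and 3704 and 15479, 13958, 13894 and 12673 (1.86, SE 0.09). Acod1, which makes itaconate, went from near background (7.08, 6.46, 3.20 and 5.05) to 272, 167, 148 and 109.7 (4.98, or 2.40 with 32 added to each signal). The NADPH oxidase subunits Cybb and Cyba rose by 2.18 (SE 0.10) and 1.00 (SE 0.08), while Nox4, the oxidase typical of resting smooth muscle, fell by 0.79 (SE 0.09). Mitochondrial Sod2 rose by 0.41 (SE 0.05) from 13509. Tlr2 and Tlr3 rose by 1.53 (SE 0.10) and 1.13 (SE 0.10), and Tlr4, a receptor of TNC, did not pass (-0.08, SE 0.05, adjusted p = 0.327). Cell death genes went both ways, 7 of 22 higher and 6 lower (3 lower under centring on the array median). Beside this count and that of the prostaglandin genes stand 9.43% of all genes called higher and 12.3% lower. The pyroptosis genes Gsdmd (1.22) and Nlrp3 (1.52), the necroptosis effector Mlkl (0.98) and Fas (0.57) were higher, and the proapoptotic Bcl2l11 was lower (-1.12, SE 0.11).

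Acute phase genes did not move as a group. Of 21 complement and acute phase genes 4 were called higher and 5 lower (median 0.13). Complement factor B (Cfb) read 1346, 1143, 1193 and 1175 and 5419, 5058, 4615 and 4182 (1.98, SE 0.13, adjusted p = 1.24e-06) and the pentraxin Ptx3 rose by 0.47 (SE 0.11). Lcn2 (0.16, adjusted p = 0.362), Saa3 (0.07) and Hp (-0.02) did not pass, at means of 26471, 25489 and 13170 with TNF. Lcn2 already averaged 23710 with TNC alone, near the brightest signals of the arrays, where a further rise may not be measurable. Serpina3n fell by 0.65 (SE 0.09), the complement inhibitors Cd55 by 0.81 (SE 0.17) and Serping1 by 0.55 (SE 0.10), and Cfi by 0.90 (SE 0.12). Socs3, the feedback inhibitor of gp130 and STAT3 signalling, read 3433, 3480, 3986 and 3464 with TNC alone and 1691, 1769, 1906 and 1274 with TNF (-1.13, SE 0.11, adjusted p = 3.62e-05). All 4 arrays with TNF lie below all 4 with TNC alone. Stat3 itself fell by 0.31 (SE 0.06), and all 3 probe sets of Socs3 were lower.

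Matrix-cutting proteases went both ways. Of 29 metalloproteinase genes 8 were called higher and 5 lower (3 lower when probe sets were averaged), beside 9.43% and 12.3% of all genes. The collagenase Mmp13 read 1388, 1080, 1660 and 2194 and 9118, 10239, 10227 and 9415 (2.67, SE 0.63, adjusted p = 0.0108). Mmp3 (stromelysin), already at 18428, rose by 0.69 (SE 0.13) to 29671, and the gelatinase Mmp2 rose by 0.32 (SE 0.05). The other gelatinase, Mmp9, read 12.9, 12.1, 3.59 and 25.2 and 130.5, 109, 107 and 86.7 (3.30, SE 0.52, adjusted p = 0.000913; 1.64 with 32 added to each signal). Its signal stayed low, but no array with TNF overlaps TNC alone. The aggrecanase Adamts4, which cuts versican and aggrecan, rose by 1.79 (SE 0.22), the elastase Mmp12 by 1.31 (SE 0.24), and Adam17, the sheddase of TNF, by 0.54 (SE 0.06). Mmp11 fell by 1.51 (SE 0.19), Adamts12 by 1.66 (SE 0.12) and Adam12 by 1.24 (SE 0.14), and Mmp14 did not pass (0.02). The limma call of Adamts12 is lost when its probe sets are averaged (-1.24, adjusted p = 0.0565). Of the inhibitors, Timp1 rose by 0.24 (SE 0.07, adjusted p = 0.0264), a call lost in a fit of the 8 arrays alone (adjusted p = 0.0636), under centring and quantile normalization, and without any of 5 single arrays. Timp2 fell by 0.36 (SE 0.07), the membrane inhibitor Reck by 0.69 (SE 0.06), and Timp3 did not pass (-0.06, SE 0.12, adjusted p = 0.786).

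Elastic fibre and matricellular genes fell in part, while the main fibrillar collagen genes did not pass. Elastin (Eln), the elastic protein of the aortic media, read 351, 336, 589 and 512 with TNC alone and 224, 188, 299.8 and 205 with TNF (-0.94, SE 0.21, adjusted p = 0.00829), and its other probe set fell more (-2.72). Fbln1 fell by 1.02 (SE 0.15), Fbln2 by 0.52 and Fbln5 by 0.34, which makes 5 of 13 elastic fibre genes lower and 1, Ltbp2 (0.43), higher. Of 26 matricellular and proteoglycan genes 10 were lower and 2 higher (1 higher under centring and without any single array but TNC array 2 or TNC and TNF array 1). Thrombospondin 1 (Thbs1) read 11935, 11264, 12804 and 12179 and 5414, 4697, 6067 and 3551 (-1.31, SE 0.13), the small proteoglycans Prelp, Ogn and Fmod fell by 1.59, 0.99 and 0.98, and Ccn1, Ccn2 and Ccn5 fell by 0.75, 0.83 and 0.84. The fibrillar collagen genes Col1a2 (-0.01), Col3a1 (-0.04) and Col5a2 (-0.07) did not pass. Col1a1 read 5444, 4680, 6608 and 5970 and 4524, 3915, 5125 and 2824. Its groups overlap and it did not pass (-0.49, SE 0.18, adjusted p = 0.0725), although it passed with the stricter filter, with either other choice of probe set, with an intensity trend, and without TNC and TNF array 3. Fibronectin (Fn1, 0.07) and osteonectin (Sparc, 0.09) did not pass either. The laminin chain Lama4 rose by 1.65 (SE 0.12) and Col4a1 by 0.32 (SE 0.05), while Col8a1 fell by 0.95 (SE 0.05). The lysyl oxidase Loxl1, which acts on elastin, fell by 0.68 (SE 0.07).

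Contractile smooth muscle genes fell in 19 of 25 with none higher (median -0.56 against -0.01 over all genes). Myl9, the regulatory myosin light chain, read 7246, 6558, 6272 and 6810 with TNC alone and 2755, 2502, 2570 and 2581 with TNF (-1.37, SE 0.08, adjusted p = 4.24e-07). Cnn1 (calponin) read 388, 342, 285 and 345 and 117, 82, 109 and 30.5 (-2.17, SE 0.36, adjusted p = 0.00118), with the fourth array with TNF the lowest. Acta2 read 19606, 21643, 21326 and 20496 and 17298, 15757, 15715 and 15334 (-0.37, SE 0.05, adjusted p = 0.000361), and the groups do not overlap. Actg2 fell by 1.65 (SE 0.11), Tagln by 0.54 (SE 0.06), the tropomyosin Tpm2 by 0.98 (SE 0.08), Lmod1 by 1.31 (SE 0.30) and the integrin Itga8 by 1.07 (SE 0.11). Myh11 was dim in both groups (53.8 and 34.4; -0.65, SE 0.18, adjusted p = 0.0259). Its call is lost under centring, on the scale of log2(value + 32), with the replicate block and without any of 4 single arrays, and its other probe set went the other way (0.96). Cald1, Des, Pln, Casq2, Kcnmb1 and Pdlim7 did not pass. Upstream, Srf (-0.44) and its cofactors Mrtfa (-0.46) and Mrtfb (-0.45), Gata6 (-0.64) and Mef2c (-0.63) were among the 11 of 19 regulators called lower (7 under centring on the array median), none was higher, and Klf4 (0.07) and the near-background Myocd (-0.24) did not pass.

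Receptors and signalling genes of vascular tone had the lowest median of the gene lists. Of 22 angiotensin, endothelin, natriuretic peptide and RGS genes 16 were called lower and 1, Ednrb, higher (median -0.87), with 11 lower in a fit of the 8 arrays alone. Leaving out single arrays gave 11 to 16 lower, and Ednrb, which is near background, lost its call without TNC array 1 or 3 or TNC and TNF array 1, 3 or 4. Rgs4, which turns off Gq signalling from angiotensin and endothelin receptors, read 713, 669.5, 889.6 and 890 and 131, 92.3, 105 and 77.2 (-2.98, SE 0.17, adjusted p = 6.05e-07). The cyclic GMP-dependent kinase Prkg1 read 1617, 1225, 1276 and 1427 and 539, 538, 526 and 524 (-1.37, SE 0.08), the guanylate cyclase subunits Gucy1a1 and Gucy1b1 fell by 1.11 (SE 0.35) and 0.82 (SE 0.26) with overlapping groups and calls that most alternatives lose, Pde5a, which degrades cyclic GMP, by 1.28 (SE 0.11), and Npr3, which clears natriuretic peptides, by 1.83 (SE 0.17). Edn1, which encodes endothelin-1, fell by 0.47 (SE 0.07). Endothelial markers were lower beside it (5 of 10, none higher), and their part in the result was not tested. Rgs5, bright at 11981, and the angiotensin receptor Agtr1a did not pass (-0.41 and 0.33).

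TGF-beta, Notch and Wnt genes shifted downwards in part. Of 37 TGF-beta pathway genes 18 were lower and 6 higher (median -0.28; 3 higher when probe sets were averaged). The ligands Tgfb2 and Tgfb3 fell by 0.97 (SE 0.09) and 1.10 (SE 0.14), Inhbb by 1.55 (SE 0.12), and the target genes Id1 and Smad7 by 0.98 (SE 0.12) and 0.49 (SE 0.11), while Tgfb1 (0.31, SE 0.05) and Inhba (0.66, SE 0.12) rose. The calls of Smad7, Tgfb1 and Inhba are lost when the probe sets of a gene are averaged. The signal transducers Smad2, Smad3 and Smad4 did not pass. Of 28 Notch and Wnt genes 11 were lower and 1 higher (none higher in a fit of the 8 arrays alone). The Notch target Hes1 read 867, 804, 759 and 745 and 304, 352, 332 and 327 (-1.27, SE 0.09, adjusted p = 2.11e-06), Hey2 fell by 1.00 (SE 0.12), beside the lower endothelial markers, whose part was not tested, and the receptor Notch3 by 0.66 (SE 0.11). The Wnt inhibitors Sfrp4 and Sfrp1 fell by 1.46 (SE 0.16) and 1.05 (SE 0.09), and the Wnt antagonist Dkk1 was higher at low signal (1.40, from 20.2). The cartilage factor Sox9 fell by 1.36 (SE 0.16).

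Growth factor genes went both ways, 10 of 39 higher and 11 lower (6 higher in a fit of the 8 arrays alone), beside 9.43% and 12.3% of all genes. The insulin-like growth factor binding proteins diverged. Igfbp3 read 382, 381, 383 and 307 and 1839, 2174, 2034 and 2556 (2.56, SE 0.15, adjusted p = 5.9e-07), Igfbp5 rose by 2.96 (SE 0.10; its other probe set by 0.82), and Igfbp4 fell by 1.16 (SE 0.21). The lymphatic growth factors diverged too, with Vegfc up by 1.00 (SE 0.19) and Vegfd down (-1.38, SE 0.11). Angpt2, an antagonist of the Tie2 receptor, fell by 1.39 (SE 0.07), as did 5 of 10 endothelial markers, whose part in this was not tested. Angpt1, an agonist of that receptor, was called higher by 1.17 (SE 0.25) from 1 of its probe sets, but the difference was 0.15 and not called (adjusted p = 0.846) when its probe sets were averaged. Fgf18 fell from 145, 124, 78.3 and 135 to near background (-3.11, or -1.70 with 32 added to each signal).

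Endoplasmic reticulum chaperone genes, which answer unfolded protein, were called higher in 24 of 30 with none lower, but their replicates varied widely and the call rests on the fit. Sdf2l1 read 1767, 5077, 2627 and 2112 with TNC alone and 6104, 7145, 4032 and 11711 with TNF (1.34, SE 0.34, adjusted p = 0.0151). The second TNC array is higher than the third array with TNF, so the groups overlap. Hspa5 (BiP), the central chaperone, read 14351, 23690, 18911 and 16644 and 23776, 24311, 18899 and 29177 and did not pass (0.39, SE 0.15, adjusted p = 0.0921). Ddit3 (CHOP) read 3138, 8282, 5968 and 4079 and 8150, 10063, 6021 and 13281 and did not pass (0.84, SE 0.29, adjusted p = 0.0625) except without TNC array 2 or TNC and TNF array 3 and in 3 other settings. Creld2 (1.02, SE 0.30), Manf (0.77, SE 0.20) and Herpud1 (0.73, SE 0.21) were called with overlapping groups. Their calls are lost without TNC array 1 or 4 and in a fit of the 8 arrays alone, and those of Creld2 and Herpud1 also without TNC array 3 or TNC and TNF array 2 or 4. Groups without overlap were found for 10 of the 30, beside 23.1% of all genes. A fit of the 8 arrays alone, which uses only their own spread, called 4. Leaving out TNC array 1 or 4 gave 10 and 12 calls, and leaving out TNC and TNF array 2 or 4 gave 14 and 13. Hspa5 passed without TNC array 2 (adjusted p = 0.0196) and without TNC and TNF array 3 (adjusted p = 0.0337).

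ATF4 target genes, which make and import amino acids under stress, showed the same replicate pattern. Of 28, 20 were called higher, none lower, and 12 had groups without overlap, beside 23.1% of all genes. A fit of the 8 arrays alone called 9, and leaving out TNC array 1 or 4 or TNC and TNF array 2 gave 10, and array 4 of that group 12. The serine synthesis genes were among the 12: Psat1 read 1120, 2156, 1432 and 1289 and 2497, 2780, 2333 and 3516 (0.92, SE 0.22, adjusted p = 0.0109), Phgdh rose by 0.77 (SE 0.17) and Psph by 0.82 (SE 0.20). Asparagine synthetase (Asns) rose by 0.67 (SE 0.16). Cholesterol synthesis genes rose in 13 of 28 with none lower (median 0.37; 8 of 28 when probe sets were averaged), and 12 of the 13 had groups without overlap. Insig1, a sterol sensor of the SREBP pathway, read 977, 985, 1116 and 1054 and 1824, 1788, 1991 and 1673 (0.82, SE 0.08, adjusted p = 3.84e-05), and Cyp51 (0.74, SE 0.13) and Fdps (0.59, SE 0.11) rose. Sqle (0.02) and Hmgcs1 (0.12) did not pass.

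**Figure D4:**
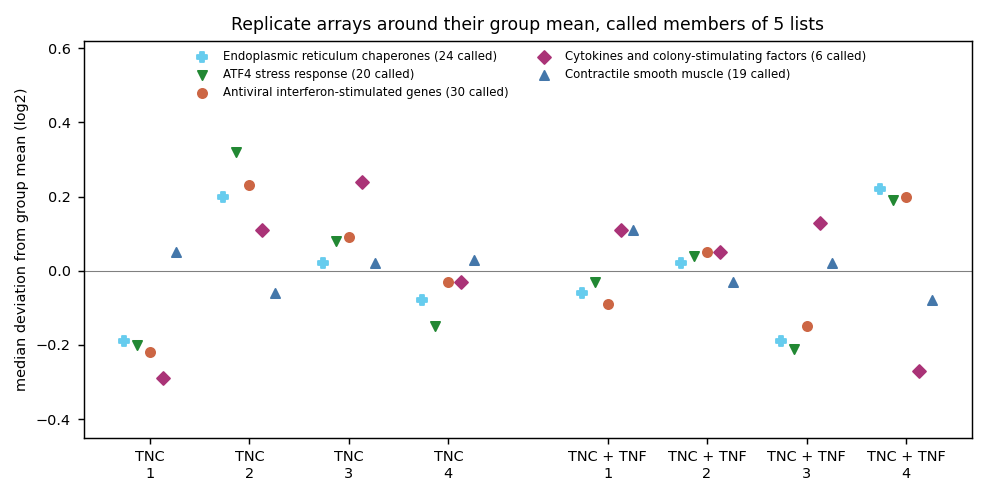
Median deviation of each array from its group mean (log2) over the called members of 5 gene lists. Chaperone, ATF4 and antiviral genes lie low on TNC array 1 and on TNC and TNF array 3, and high on TNC array 2 and on TNC and TNF array 4, while cytokine genes lie low on TNC array 1 and on TNC and TNF array 4.

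The plot of array deviations shows that these groups of genes vary together among replicates. On TNC array 2 the called chaperone, ATF4 and antiviral genes lay 0.2, 0.32 and 0.23 above the group mean (medians, log2), and on TNC array 1 they lay at -0.19, -0.2 and -0.22. With TNF, array 4 lay at 0.22, 0.19 and 0.2 and array 3 at -0.19, -0.21 and -0.15. The 6 called cytokine genes did the reverse on array 4 with TNF (-0.27), and the contractile genes stayed within -0.08 and 0.11 on all 8 arrays. Over the 8287 genes with a mean signal of at least 300 in either group, the SD of single arrays around the group mean was 0.096 to 0.161, highest on array 4 with TNF. Whether differences in culture, harvest time or RNA move these groups of genes was not tested.

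Counts in the cell cycle and metabolic lists stand beside 21.8% of all genes called. Of 40 mitotic genes 3 were higher and 4 lower. Only 2 were lower without TNC array 4 or TNC and TNF array 1, 2 or 4, and 8 were higher with an intensity trend in the variances. Of 29 DNA replication genes none was higher and 4 were lower (1 without TNC array 3 or TNC and TNF array 2), with Mki67 (0.31, adjusted p = 0.288) and Pcna (-0.16, adjusted p = 0.125) not called. Of 24 glycolysis and hypoxia genes 5 were higher and 2 lower. Fatty acid oxidation genes were lower in 7 of 25 and higher in none (4 lower in a fit of the 8 arrays alone and under centring). The fatty acid binding protein Fabp4 fell by 1.82 (SE 0.12) and Pdk4, the kinase that blocks pyruvate oxidation, by 0.91 (SE 0.11). Integrins and other receptors of TNC changed in 3 of 19 upwards and 6 downwards (3 lower in a fit of the 8 arrays alone), with Itgav higher (0.42) and Itgb1 lower (-0.36), although averaging the probe sets gave 0.06 and 0.12. Itga9 and Itgb3 did not pass.

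Vitamin D and retinoid enzymes held some of the largest falls. Of 22 genes 11 were lower and 3 higher. Cyp24a1, which inactivates vitamin D, read 1179, 778, 837 and 1025 and 78.8, 115, 80.3 and 86.1 (-3.40, SE 0.19, adjusted p = 4.62e-07). Cyp27b1, which activates it, went the other way at low signal (25.3, 3.08, 19.2 and 15.2 to 77.9, 99.2, 105 and 82.3; 2.88, SE 0.87, adjusted p = 0.0354), and the receptor gene Vdr rose by 0.55 (SE 0.17). The Cyp27b1 call is lost without any single array but TNC array 1 or 3, and the Vdr call without TNC array 2, 3 or 4 or TNC and TNF array 2 or 3, so that as few as 1 of the 22 was called higher. The retinaldehyde dehydrogenases Aldh1a3, Aldh1a1 and Aldh1a2 fell by 1.80 (SE 0.15), 1.16 (SE 0.11) and 0.92 (SE 0.10), and Adh1, which oxidizes retinol, fell by 2.11 (SE 0.17) from 11358.

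Of the 20 largest rises, ranked on the scale of log2(value + 32) among called genes without overlap, those not given above are Slc2a6, a hexose transporter (155 to 1640; 3.44), Gpr84, a receptor for medium-chain fatty acids (165 to 1690; 3.42), and Clec4e, the lectin receptor Mincle (25.6 to 482; 4.23). The others are the transporters Abca13 (3.32) and Slc36a2 (2.68) and the transcription factor Spib (3.40). The largest falls were led by Cemip, which degrades hyaluronan. It read 2732, 1844, 2587 and 2583 with TNC alone and 328, 241, 240.2 and 173 with TNF (-3.33, SE 0.18, adjusted p = 3.75e-07). Fam107a, an actin-associated protein, read 7618, 6407, 5942 and 7214 and 799, 725, 749 and 774 (-3.15, SE 0.10, adjusted p = 1.34e-08). Rnase1 fell from 5209 to 1128 (-2.19), Ugt8a, a galactolipid enzyme, by 3.03, the LIM protein Lmcd1 by 2.44, the collectin Colec11 by 2.47, and Tmem178 by 2.76. The list is completed by Angptl1 (-2.61), Fmo2 (-2.23), Prss35 (-2.14), Inmt (-2.20), Slc18a2 (-2.17), Gas1 (-1.89), Sncaip (-2.08), the sphingosine-1-phosphate exporter Spns2 (-1.92) and the ferritin receptor Scara5 (-1.89). Spns2 is known from endothelium, whose markers were lower as well, and their part was not tested. For Angptl1 and Gas1 another probe set differed by only -0.06 and 0.19, and the Scara5 call is lost when its probe sets are averaged.

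The TNF effect was then set against the effect of the same dose without TNC, 3 arrays against 3, which shares no array with it. The difference of the 2 effects passed in 2898 genes (18.5%), 1506 more positive with TNC and 1392 (8.9%) more negative. The more positive share was 52%, and it was 38.7% after centring every array on its median (777 and 1229) and 41.6% with centring on the tested genes (1160 and 1630). Of the genes called higher with TNC 838 were also called higher without it, which is 56.9% of the first list and 38.1% of the second, and of those called lower 1155 were shared, 59.9% and 36.8%. Interferon genes had smaller rises with TNC. The effect was more negative in 26 of 33 antiviral genes and more positive in none, with medians of 1.11 with TNC and 3.2 without. The same held for 9 of 10 GBP and IRG genes (1.54 and 3.51), 13 of 14 MHC class I genes (1.07 and 2.59), 9 of 10 NF-kB genes (0.55 and 1.62) and 15 of 21 complement and acute phase genes (0.13 and 1.58). Contractile genes went the other way, with an effect more positive with TNC in 9 of 25 and more negative in 1 (medians -0.56 and -1.03). Myl9 averaged 12707 with no factor, 2055 with TNF, 6721 with TNC and 2602 with both. In the same order Ifit2 averaged 740.9, 14505, 566.5 and 1077, Nfkbia 5858, 17446, 14831 and 18397, and Lcn2 25.3, 2557, 23710 and 26471. Nfkbia and Lcn2 thus already stood higher with TNC alone than with no factor, while Ifit2 did not. Cholesterol genes had a more positive effect in 9 of 28 and a more negative one in 1 (medians 0.37 and -0.06), and chaperone genes in 6 of 30 and a more negative one in none (0.39 and 0.09).

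**Figure D5:**
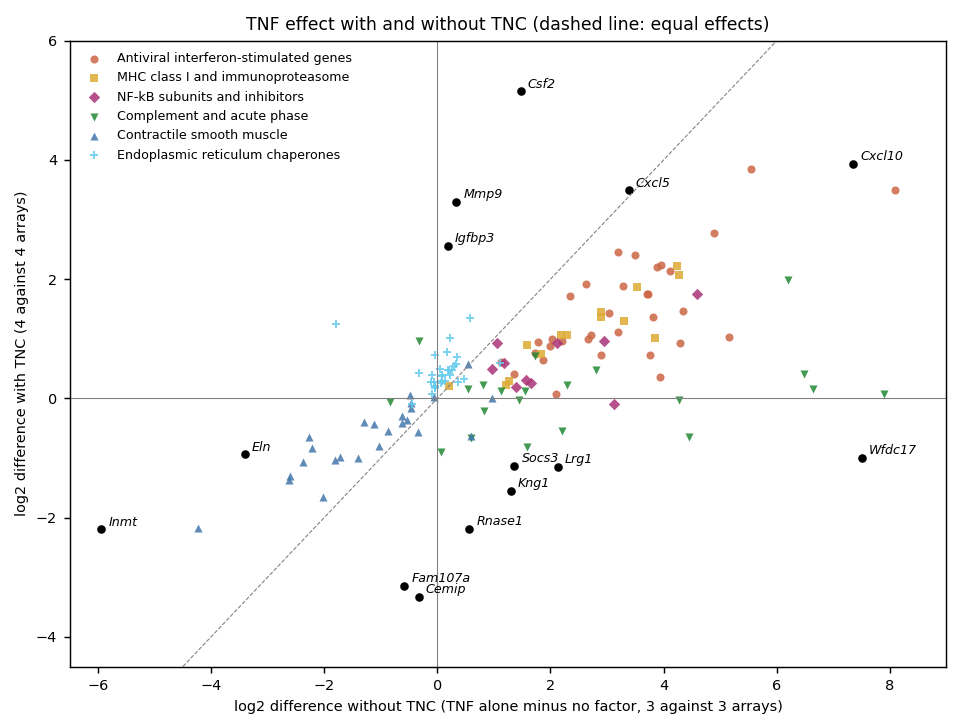
Log2 effect of TNF without TNC (horizontal, 3 against 3 arrays) and with TNC (vertical, 4 against 4 arrays) for the members of 6 gene lists and for named genes (black). Antiviral genes and most MHC class I genes lie below the dashed line of equal effects, Csf2, Mmp9 and Igfbp3 lie above it, and Socs3, Lrg1, Kng1 and Wfdc17 lie to the right of 0 without TNC and below 0 with it.

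Some genes responded to TNF more with TNC than without, by the test of that difference. Csf2 differed by 3.67 between the effects (SE 0.75, adjusted p = 0.00548), Mmp9 by 2.97 (SE 0.80, adjusted p = 0.0241), Igfbp3 by 2.38 (SE 0.23, adjusted p = 3.07e-05) and Abca13 by 1.83 (SE 0.36, adjusted p = 0.0047). Igfbp3 averaged 423 with no factor, 481 with TNF and 363 with TNC, and 2151 with both. The falls of Cemip (-3.00, SE 0.28, adjusted p = 2.29e-05), Fam107a (-2.56, SE 0.15), Tmem178 (-2.32, SE 0.34) and Spns2 (-1.36, SE 0.18) were likewise larger with TNC. Cemip averaged 2483 with no factor, 1982 with TNF, 2436 with TNC and 246 with both. Mmp9 averaged 11.9 with no factor, 15.8 with TNF and 13.5 with TNC, all near background, so the size of its difference is uncertain. Csf2 read 4.90 to 11.7 with no factor and 9.92 to 39.4 with TNF, also near background, so the size of its difference is uncertain as well. For Cxcl5 (0.11), Csf3 (1.55), Vcam1 (-0.34), Ptgs2 (0.59), Nos2 (0.51), Acta2 (0.16), Col1a1 (-0.02), Hspa5 (0.18) and Tnc (-0.12) the difference of the effects did not pass.

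TNF moved 220 genes in opposite directions with and without TNC, all called on both sides, 99 of them higher with TNC and 121 lower. These are a small part of the calls, 6.47% of those with TNC and 4.12% of those without it. By the rule that ranks them on the smaller of the effects, 10 are named. Socs3 fell by 1.13 with TNC and rose by 1.36 without it, from a mean of 773 to 1978, against 3591 with TNC alone and 1660 with both. Lrg1, a plasma glycoprotein induced by gp130 cytokines, fell by 1.15 and rose by 2.13. Kng1, the kininogen that yields bradykinin, fell by 1.55 and rose by 1.30, and the protease inhibitor gene Serpinb1a fell by 1.56 and rose by 1.01. Gm30873 (-1.08 with TNC, 1.39 without) had the same pattern, as did E230016K23Rik (-1.11, 1.58) and Egflam (-3.00, 3.14). The last pair is near background, and with 32 added to each signal their differences with TNC were -0.54 and -0.75. Dlg2 (1.80, -1.21), the serotonin receptor gene Htr1b (1.05, -1.45) and Camk4 (1.17, -1.01) rose with TNC and fell without. The calls of Htr1b with TNC are lost without any of 5 single arrays and, like that of E230016K23Rik, in a fit of the 8 arrays alone, and that of Camk4 when probe sets are averaged. Wfdc17, chosen after its values were seen, averaged 3.02 with no factor, 542 with TNF, 4961 with TNC and 2487 with both.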

How the data were processed

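Gene expression was measured on 22 Affymetrix Mouse Genome 430 2.0 arrays, 14 of cultured cells and 8 of aortic RNA pools. The authors deposited 1 signal intensity per probe set and array, made with Affymetrix Expression Console per the submitters' processing notes (version not given in the sources used here). On every array the mean of the middle 96% of the deposited intensities was 500.0, a test of the values themselves. No detection calls were used, and values fall to very low levels without a floor. Of 45101 probe sets, 64 were controls, 9160 had no gene name in the platform annotation, 932 had several and 34945 had 1, which gives 18193 genes. A gene was represented by its probe set of highest mean log2 intensity over all 22 arrays, tissue pools included. Genes that reached the 30th percentile of an array's probe sets on at least 3 cell arrays were tested (15636), on log2 intensities with no pseudocount.

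limma 3.58.1 on R 4.3.3 fitted the 4 groups of cell arrays as one model with 10 residual degrees of freedom, with empirical Bayes variances and Benjamini-Hochberg adjustment over all tested genes. The contrasts were TNC and TNF minus TNC alone, TNF alone minus no factor, and their difference. Calls needed an adjusted p under 0.05. The fit was tested on simulated data with independent noise for each gene. Such data hold no shift that groups of genes share on an array, so the test does not cover such shifts. The number of arrays limits the precision. The independent cultures named in the design text are taken as replicates, and p-values measure the spread between these arrays.

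The 36 fixed genes, the 20 largest rises and 20 largest falls on the scale of log2(value + 32) among called genes whose arrays do not overlap, and 10 genes called in opposite directions with and without TNC are named by rule. Others are members of the gene lists. The members and lists were chosen with earlier results of these data known. Alternatives were centring on the array median, quantile normalization, log2(value + 32), a 50th percentile filter or none, the mean of all probe sets or the probe set chosen on the 8 arrays, an intensity trend with robust variances, a fit of the 8 arrays alone, the replicate number as a block, leaving out each of the 8 arrays, and, added after seeing the data, centring on the median of the tested genes. Promoters came from RefSeq (GRCm38.p6). The tissue pools served as a reference for marker levels and entered the mean by which each gene's probe set was chosen.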

Additional observations from a re-analysis of the deposited data

Results flagged for a closer look

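For 20 of 524 groups of 4 arrays tested (3.82%), the highest or lowest array stood apart from the other 3 by the limit of Dixon's test. Chance gives 5% (1 in 20) for independent groups. The groups tested share the same 8 arrays and belong to genes reported here, many picked for groups without overlap. Whether outliers are rarer or more common than chance can therefore not be read from these shares. On array 4 with TNC and TNF, Adh1 read 1728 against 2983 to 3063 on the other 3, Irf1 3465 against 3821 to 3854, Pde5a 301 against 344 to 345 and Smad7 1175 against 1627 to 1717. On the same array Spib read 209 against 393 to 428, Tnc 66.3 against 80.5 to 82.7 and Usp18 2837 against 1405 to 1606. On array 1 with TNC alone, Hey2 read 404 against 450.2 to 459 on the other 3, Inhbb 1453 against 1010 to 1048 and Itgav 8130 against 8879 to 8964. On array 3 with TNC alone, Csf3 read 517 against 406 to 414 on the other 3, Socs3 3986 against 3433 to 3480 and Tslp 327 against 253 to 263. On array 1 with TNC and TNF, Col4a1 read 13326 against 11774 to 11911 on the other 3, Rela 4743 against 4205 to 4268 and Tpm2 3436 against 2993 to 3025. On array 2 with TNC alone, Cemip read 1844 against 2583 to 2732 on the other 3 and Cxcl13 230.1 against 107 to 124. On array 4 with TNC alone, Igfbp3 read 307 against 381 to 383 on the other 3. On array 3 with TNC and TNF, Tlr4 read 1638 against 1473 to 1486 on the other 3. Array 4 with TNC and TNF holds 7 of these 20.

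The TNF effect differed between cells with and without TNC in 27 of 36 fixed genes, by the adjusted p of the difference in the limma fit. On the log2 scale the effect with TNC minus the effect without it was negative for Ccl2 (-4.13, adjusted p = 2e-08), Il6 (-2.86, adjusted p = 2.44e-06), Cxcl10 (-3.41, adjusted p = 0.000214), Cxcl9 (-9.95, adjusted p = 7.67e-07) and Cxcl1 (-1.64, adjusted p = 9.91e-07). The same held for Ccl20 (-2.24, adjusted p = 0.000204), Icam1 (-1.27, adjusted p = 9.98e-06), Nfkbia (-1.27, adjusted p = 6.09e-06), Tnfaip3 (-1.65, adjusted p = 3.21e-05) and Birc3 (-2.04, adjusted p = 2.19e-06). It was negative too for Irf1 (-1.63, adjusted p = 2.63e-07), Ifit2 (-3.36, adjusted p = 9.34e-09), Psmb8 (-2.21, adjusted p = 5.54e-07), Tap1 (-2.01, adjusted p = 5.07e-06) and Mmp3 (-1.28, adjusted p = 0.00109). Negative differences were also found for Mmp13 (-3.16, adjusted p = 0.0427), Timp1 (-1.46, adjusted p = 3.04e-06), Tnfrsf1a (-0.70, adjusted p = 2.62e-05), Tnfrsf1b (-0.61, adjusted p = 0.0219) and Sod2 (-1.65, adjusted p = 1.27e-07). The same held for Lcn2 (-6.49, adjusted p = 1.28e-09). Several of these sizes are uncertain. Cxcl9 read 1.29 to 3.00 with no factor, below background, so its rise without TNC has no exact size. With no factor Mmp13 read 4.97, 15.7 and 0.939 and Ccl20 5.53, 4.81 and 5.76, so the same holds for both. Lcn2 already averaged 23710 and Cxcl1 26862 with TNC alone, and the brightest signals of single arrays of the cells were 26914 to 33291, so that a further rise may not be measurable, and Mmp3 (18428), Icam1 (17462) and Ccl2 (16102) were bright there too. The difference was positive for Csf2 (3.67, adjusted p = 0.00548), Mmp9 (2.97, adjusted p = 0.0241), Timp3 (0.91, adjusted p = 0.00471), Tagln (0.34, adjusted p = 0.034), Myh11 (1.62, adjusted p = 0.0021) and Eln (2.46, adjusted p = 0.000339). Mmp9 averaged 11.9 with no factor, 15.9 with TNF and 13.5 with TNC, all near background, and the size of its difference is uncertain too. So is that of Csf2, which averaged 7.54 with no factor and 22.8 with TNF.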

How the results depend on the processing

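With TNC, 3402 genes were called. Other settings gave 3755 with the 50th percentile filter, 3128 with no filter, 2561 with centring on the array median, 3466 with centring on the tested genes, 3305 with quantile normalization, 3469 on the scale of log2(value + 32), 3805 with an intensity trend, 2397 with the mean of all probe sets, 3390 with probe sets chosen on the 8 arrays and 2378 with the 8 arrays alone. Calls lower were 1197 under centring on the array median, and calls higher 967 with the mean of all probe sets. Changes of at least 2-fold were 362 on the scale of log2(value + 32), and differences between the TNF effects with and without TNC 1890 with the mean of all probe sets. Leaving out 1 array gave 2625 to 3286 calls, 1125 to 1456 higher, 1500 to 1861 lower, 517 to 611 of at least 2-fold and 2437 to 2794 differences between the effects. Over all tested genes, same-numbered arrays did not deviate together (correlations of -0.014 to 0.039), and the numbers are not taken as pairs. Single arrays spread there with an SD of 0.450 to 0.491, against 0.096 to 0.161 for bright genes. Noise of dim genes may hide a shared culture effect, so these correlations cannot exclude pairs. The replicate block gave 3069 calls, 561 of at least 2-fold and 2520 differences between the effects. Averaging the probe sets reversed Myh11 (0.15) and Itgb1 (0.12), whose probe sets disagree. Of 229 called genes reported, 41 lost the call in at least 1 setting. Among them, Adamts12, Cyld, Traf5, Fbln2, Mrtfb and Fdps lost it when probe sets were averaged. Timp2 lost it with probe sets chosen on the 8 arrays, Fbln5 under centring on the array median, and Psph and Sdf2l1 in a fit of the 8 arrays alone. Dim genes have values near background, where the log2 difference depends most on the pseudocount.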

Other observations

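Further gene lists showed small or mixed shifts with TNF in TNC-treated cells. Of 21 genes of the TNF ligand and receptor superfamily 5 were called higher and 1 lower (median 0.01), and the higher count fell to 2 without TNC array 4 or TNC and TNF array 2. Of 15 protease inhibitors 4 were higher and 4 lower, with 2 higher in a fit of the 8 arrays alone. Of 19 fibrillar collagens and matrix enzymes 4 were higher and 4 lower, and of 22 basement membrane and other collagens 6 were higher and 3 lower. Of 27 antioxidant and NADPH oxidase genes 11 rose and 3 fell, and of 19 Toll-like receptor and interleukin-1 signalling genes 7 rose and 1 fell. Of 20 AP-1 and immediate early genes 5 rose and 3 fell, with 3 higher and 6 lower without TNC array 4 and 6 lower without TNC and TNF array 3. Of 14 feedback genes of MAP kinases 2 rose and 2 fell. Coagulation and plasminogen activation genes were lower in 5 of 12 and higher in 1. Chondro-osteogenic genes were lower in 3 of 18 and higher in 1, potassium and calcium handling genes lower in 2 of 20 and higher in 2, and circadian clock genes higher in 2 of 16 and lower in 1. These counts stand against 9.43% of all genes called higher and 12.3% called lower.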
